A study of Mus musculus with 6 samples.

Results

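The genes described are 45 that encode the machinery and the control of chromosomal DNA replication, taken by gene name from a table of 54232 genes. All 45 names were found once each, and all 45 passed the filter on low values, which asked for 10 normalized counts or more in 3 or more of the libraries. A normalized count is a gene's read count divided by the authors' size factor for that library. RNA was sequenced from mouse macrophages grown out of bone marrow, of strain C57BL/6 and 8 weeks of age by the labels. One group carried a knockout of SIRPa (KO, 3 libraries), the CD47 receptor that holds back engulfment by myeloid cells, and the other was wild type (WT, 3 libraries). Both groups spent 7 days in culture with 30% L929 conditioned medium, the source of colony-stimulating factor 1, and neither was treated. The sources used here do not give how the knockout was made, which exons it removed or the sex of the mice. Nor do they say whether replicates were separate animals, so that the spread behind each p-value may be a technical one. Setting KO beside WT asks what loss of SIRPa changes in untreated macrophages.

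Chromosomes are copied once per cell cycle. Origins are licensed when the origin recognition complex, Cdc6 and Cdt1 load the ring-shaped MCM helicase, which becomes active once Cdc45 and the GINS complex bind it. Primase with polymerase alpha then starts each strand, polymerases delta and epsilon extend it on the sliding clamp PCNA, and flap removal and ligation join the pieces. E2F transcription factors switch on many of these genes as cells leave G1. Macrophages of bone marrow culture divide in response to colony-stimulating factor 1.

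The libraries held between 28653015 and 67446846 assigned reads, and WT replicate 3 was the deepest. That library stands apart for cell cycle genes, so the results are given with and without it. The summed normalized count of the 45 genes was 111496 to 128561 in KO and 103528 to 122052 in WT. Their lowest read count in any library was 112. Sirpa, the targeted gene, had 2102, 2112 and 2010.4 normalized counts in KO and 110498, 114095 and 94737 in WT, so that KO stood at 1.95% of the WT level. The labels give the cell type as bone marrow cells and the source as macrophages grown from them, and all 10 macrophage markers, Csf1r, Adgre1, Cd68 and Lyz2 among them, passed the filter. Of 8 erythroid markers 5 were at 0 in every library, Hba-a1, Hba-a2, Car1 and Alas2 among them, and the other 3 stayed under 10. For B cells 1 of 7 markers passed, for T and NK cells 1 of 6, for dendritic cells 3 of 5, for fibroblasts 1 of 6 and for mast cells 1 of 5, with sums of at most 201 per list. Of 9 markers of myeloid progenitors 6 passed the filter, with a summed normalized count of 288 to 417 in KO and 326 to 476 in WT.

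No replication gene passed the test between KO and WT, but the values leaned upward in KO. By limma, with Benjamini-Hochberg adjustment over 13527 genes, 0 of 45 had an adjusted p under 0.05, where 0.00739% of all genes tested did (1 gene, Sirpa). On whole reads recovered from the table, 0 of 45 passed by edgeR (0.00751% of all genes) and by DESeq2 (0.00406%). The log2 fold change of KO over WT, on the log2(normalized count + 1) scale, was above 0 for 37 of 45 genes, where 48.2% of all genes tested were. The 8 others were Orc6, Gins4, Prim2, Pcna, Rfc3, Rpa3, Tyms and E2f2. It was above 0 for 31 of 45 by edgeR and 29 by DESeq2. The median was 0.066, with a range from -0.13 to 0.37, against a median of -0.006 for all genes tested. At an unadjusted p under 0.05, 4 genes were higher and 0 lower in KO, 8.89% of the 45 against 0.688% of all genes tested higher and 1.52% in either direction. There were 5 by edgeR and 4 by DESeq2, where 1.56% and 0.882% of all genes had one. The 3 KO libraries lay above the 3 WT libraries for 5 genes, Pola1, Pole, Cdc6, Mcm4 and Lig1, which is 11.1% of the 45 against 1.96% of all genes tested. Of these, Lig1 shares 247 exon bases with Zswim9 and Pole 78 with Gm15792, both on the opposite strand. The reverse order of the groups held for 0 of 45, against 2.71%. The 45 genes were read in the same 6 libraries and are not independent of each other. They were chosen with earlier results of these data known, so the shares above are a description and not a test. In bulk RNA, a different share of cycling cells and a different RNA level per cell cannot be told apart.

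The limma intervals give a range for the difference of each gene singly, with no adjustment over the 45 genes. If replicates did not come from separate mice, variation between mice is missing from these intervals. They would then not bound a difference due to genotype. For 45 of 45 genes the 95% interval excluded a difference of 2-fold or more, and for 39 of 45 one of 1.5-fold or more. The lean depended on single libraries. The median was 0.19 without WT replicate 3, with 45 of 45 genes above 0, and -0.0014 without WT replicate 2, with 22 of 45 above 0. Leaving out WT replicate 1 or KO replicate 1, 2 or 3 gave 0.033, 0.058, 0.042 and 0.13, in that order. By limma, 4 of 45 had an unadjusted p under 0.05 in either direction with all libraries, where 205 of 13527 genes tested did. Without KO replicate 1, 2 or 3 there were 1, 4 and 9. Of all genes tested in these fits, 108 of 13364, 632 of 13356 and 225 of 13372 had such a p. Without WT replicate 1, 2 or 3 there were 2, 2 and 10. Here 207 of 13376, 659 of 13373 and 210 of 13394 genes tested had one.

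**Figure D1:**
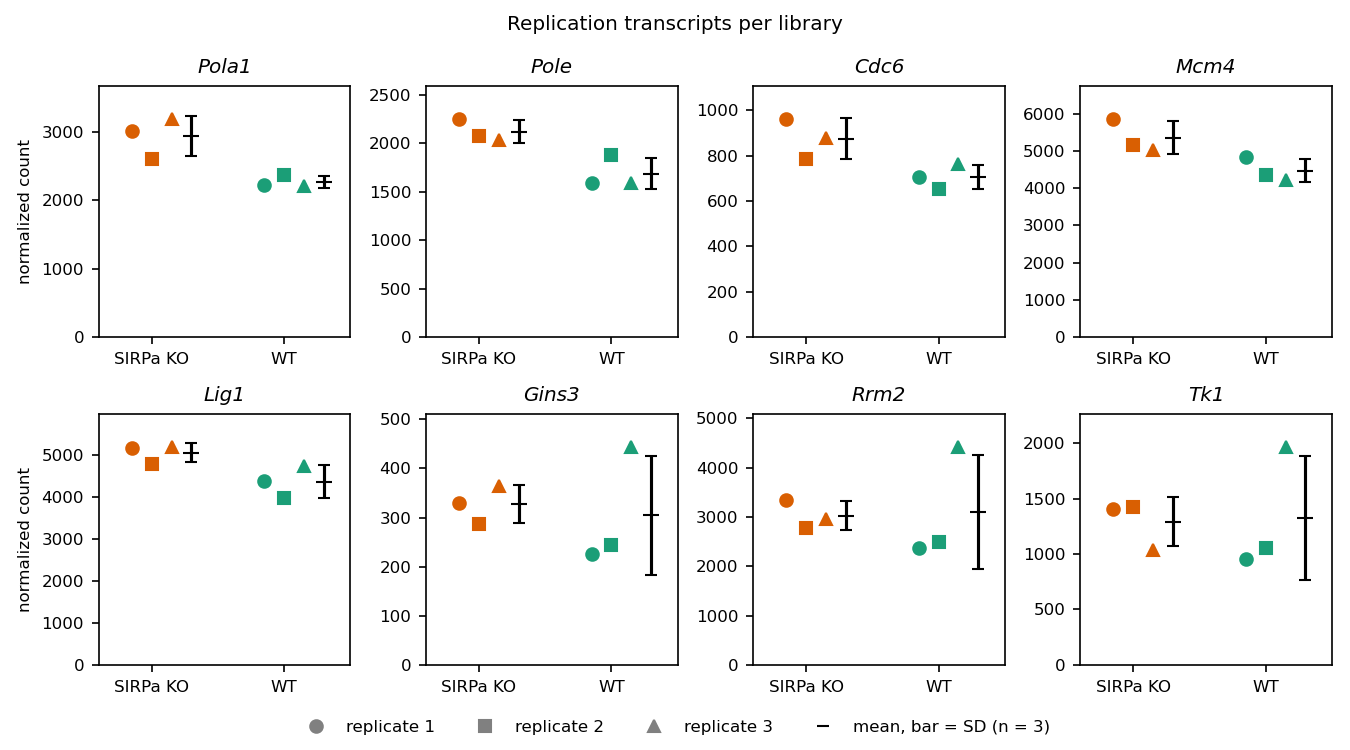
Normalized counts of 8 replication genes, with 1 point per library (shape gives the replicate number) and the mean with SD (n = 3) beside each group; axes start at 0. Pola1, Pole, Cdc6, Mcm4 and Lig1 had their 3 KO libraries above their 3 WT libraries, while Gins3, Rrm2 and Tk1 had their highest value in WT replicate 3.

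Pola1 had the smallest p of the 45 genes, which were chosen with earlier results of these data known. It encodes the catalytic subunit of DNA polymerase alpha, which extends the RNA primer of every new strand. It was counted at 3015, 2609 and 3190.4 in KO replicates 1 to 3 and 2217, 2367 and 2213 in WT replicates 1 to 3, in normalized counts. Each KO library thus exceeded each WT library, the closest pair being KO replicate 2 and WT replicate 2. Means were 2938 ± 298 in KO and 2266 ± 87.6 in WT (SD, n = 3 each). KO exceeded WT by 0.37 on the log2 scale (SE 0.11, 95% interval 0.13 to 0.61), or 1.29-fold (1.09 to 1.53), with an unadjusted p of 0.00677 and an adjusted p just under 1 by limma. In the authors' deposited table its log2 fold change is 0.38, with a p-value of 0.00343. Over the fits without 1 library, its log2 fold change ranged between 0.31 and 0.45. Pola1 (ENSMUSG00000006678) lies on chromosome X from 93304767 to 93632155 on the minus strand of GRCm38 in GENCODE M21.

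The other subunits of the primase and polymerase alpha complex had smaller differences, though the contrast with Pola1 was not tested. Pola2, the accessory subunit, had 1435, 1642 and 1355 in KO and 1429.7, 1332 and 1460.4 in WT (log2 fold change 0.066). Prim2, the large primase subunit, had 1061, 947 and 917 in KO and 989.7, 848 and 1142 in WT (-0.019), and the groups overlapped for both. Prim1, the catalytic primase subunit, had a log2 fold change of 0.012. Divided by exon length in kilobases, Pola1 made up 36.0% ± 3.19 of the summed level of these 4 transcripts in KO and 30.6% ± 3.60 in WT (SD, n = 3 each). The shares per library were 35.6%, 33.0% and 39.3% in KO and 29.9%, 34.5% and 27.4% in WT. By share of the complex, KO replicate 2 lay below WT replicate 2, so that the groups overlapped.

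Promoter sequences are shown for 3 of the genes with groups that did not overlap and for Rrm2, a gene highest in WT replicate 3, to show the E2F motif found in many of these promoters. Each runs 5′ to 3′ on the gene's strand, from 250 bases before to 50 bases after a RefSeq transcript start on GRCm38.p6, and capitals mark a match to TTTCCCGC, TTTCGCGC, TTTGCCGC or TTTGGCGC on either strand.
Pola1, chrX:93632106-93632405, minus strand: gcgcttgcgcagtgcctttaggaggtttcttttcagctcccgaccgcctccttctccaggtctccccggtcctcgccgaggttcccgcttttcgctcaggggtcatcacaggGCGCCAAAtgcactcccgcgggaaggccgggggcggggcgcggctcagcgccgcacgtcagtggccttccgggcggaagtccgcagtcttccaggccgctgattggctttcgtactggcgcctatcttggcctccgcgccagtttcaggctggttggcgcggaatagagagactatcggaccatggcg
Cdc6, chr11:98907901-98908200, plus strand: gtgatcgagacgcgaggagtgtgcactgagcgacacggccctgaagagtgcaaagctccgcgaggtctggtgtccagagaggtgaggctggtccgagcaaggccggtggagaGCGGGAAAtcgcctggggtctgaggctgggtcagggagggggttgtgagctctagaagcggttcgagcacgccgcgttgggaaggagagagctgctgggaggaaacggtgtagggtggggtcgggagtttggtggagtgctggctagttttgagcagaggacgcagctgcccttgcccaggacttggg
Lig1, chr7:13278576-13278875, plus strand: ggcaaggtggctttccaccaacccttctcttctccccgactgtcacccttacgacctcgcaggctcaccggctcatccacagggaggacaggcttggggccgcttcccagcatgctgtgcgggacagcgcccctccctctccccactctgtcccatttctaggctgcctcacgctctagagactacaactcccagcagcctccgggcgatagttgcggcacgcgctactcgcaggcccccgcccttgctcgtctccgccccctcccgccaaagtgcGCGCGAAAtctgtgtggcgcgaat
Rrm2, chr12:24708004-24708303, plus strand: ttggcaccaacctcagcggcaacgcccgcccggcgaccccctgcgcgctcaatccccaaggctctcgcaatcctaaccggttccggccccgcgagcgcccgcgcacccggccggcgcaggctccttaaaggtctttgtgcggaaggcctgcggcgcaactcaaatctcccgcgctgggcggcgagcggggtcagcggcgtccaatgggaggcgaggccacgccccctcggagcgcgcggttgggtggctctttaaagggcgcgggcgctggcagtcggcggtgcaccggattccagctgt
The match began at position -138 in Pola1 and at -138 in Cdc6, counted from the transcript start, and at 27 in Lig1, for the 1 of its 3 listed starts that held one. In each of these promoters the motif was read on the opposite strand. The Rrm2 window held no match to these letters.

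The RefSeq table held promoters of 37 of the 45 genes. Pole and Mcm4, whose groups did not overlap, were among the genes it did not hold. Of the 37 genes, 15 (40.5%) had at least 1 match. Of the tested genes with a promoter in the table, 4.83% had one (466 of 9656), and of all 32851 promoters 2.26%. Counted by promoter, 15 of 43 (34.9%) held it. The CCAAT box, searched as CCAAT on both strands, was in 59.5% of these genes (22 of 37) and 43.2% of tested genes. A promoter counted once however many matches it held, overlapping ones included, and a match is a description of the letters, not a bound site. The 15 genes with the E2F motif were Orc1, Cdc6, Cdt1, Mcm3, Mcm5, Mcm6, Mcm7, Gins3, Pola1, Pold1, Pold3, Pole2, Rfc3, Lig1 and E2f2. Their median log2 fold change was 0.16, against 0.023 for the 22 without it. Without WT replicate 3 these medians were 0.18 and 0.20. WT replicate 3 was the highest library for 4 of the 15 genes with the motif, Gins3, Pole2, Rfc3 and E2f2, and for 15 of the 22 without it.

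In what follows, counts are normalized counts of replicates 1 to 3 in order, and the value in brackets after them is the log2 fold change of KO over WT, with its SE or unadjusted p where given. Among the genes of origin licensing, Cdc6 and Orc1 had the largest values of KO over WT. Cdc6, the ATPase that recruits Cdt1 and MCM to the origin, had 962, 785 and 877 in KO and 705, 653 and 761 in WT. Its groups did not overlap, though KO replicate 2 and WT replicate 3 lay close together (log2 fold change 0.31, SE 0.13, unadjusted p = 0.0344 by limma). Cdc6 lies on chromosome 11 from 98907801 to 98923940 on the plus strand. Orc1, the largest subunit of the origin recognition complex, was low at 165, 169.5 and 199 in KO and 122, 138 and 166 in WT, and WT replicate 3 reached the KO range, with 376 exon bases shared with Gm12743 on the opposite strand (0.33, SE 0.18). Mcm10, which acts as the helicase is activated, had 1095, 1013 and 1008 in KO and 799.6, 907 and 1032 in WT (0.19), again with WT replicate 3 inside the KO range. Cdt1, which brings MCM to the origin, had the highest counts of the group, not corrected for length, with 2151, 2246 and 1522 in KO and 1812, 1959.8 and 1869 in WT. KO replicate 3 was its lowest library, and its log2 fold change was 0.049. Orc6, another subunit of the origin recognition complex, had a log2 fold change of -0.019.

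All 6 subunits of the MCM ring, Mcm2 to Mcm7, had log2 fold changes above 0, from 0.15 to 0.26, and none passed the test. Mcm4 had 5865, 5170.3 and 5027 in KO and 4827, 4362 and 4231 in WT, with groups that did not overlap (0.26, SE 0.11, unadjusted p = 0.0362 by limma). The fit without WT replicate 3 gave Mcm4 0.22, with an unadjusted p of 0.097 by limma. It lies on chromosome 16 from 15623897 to 15637400 on the minus strand. Mcm2 had 4265, 3916 and 3165 in KO and 3241, 3192 and 2976 in WT, and only KO replicate 3 lay within the WT range (0.26, SE 0.12). Mcm3 had 7115, 6813 and 6305 in KO and 6405, 5503 and 5676 in WT (0.20), with 1 overlap, KO replicate 3 below WT replicate 1. Mcm6, the most abundant of them per kilobase, had 15702, 14052 and 12601 in KO and 13151, 12351 and 12216 in WT (0.16), and KO replicate 3 again lay below WT replicate 1. Mcm5 had 6965, 6809 and 5218 in KO and 5692, 5477 and 5816 in WT (0.15), with KO replicate 3 below all 3 WT libraries. Mcm7 had a log2 fold change of 0.19, with KO replicate 3 inside the WT range. KO replicate 1 was the highest of the 6 libraries for every one of the 6 subunits. The level summed over the ring per kilobase of exon was 10395, 9615 and 8508 normalized counts in KO and 8682, 8026 and 8197 in WT. The sums overlapped between groups through KO replicate 3 and WT replicate 1. The composition of the ring overlapped as well. Mcm6 made up 31.8% ± 0.53 of that sum in KO and 32.5% ± 0.522 in WT, and Mcm7 11.2% ± 0.18 and 11.2% ± 0.895 (SD, n = 3 each).

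**Figure D2:**
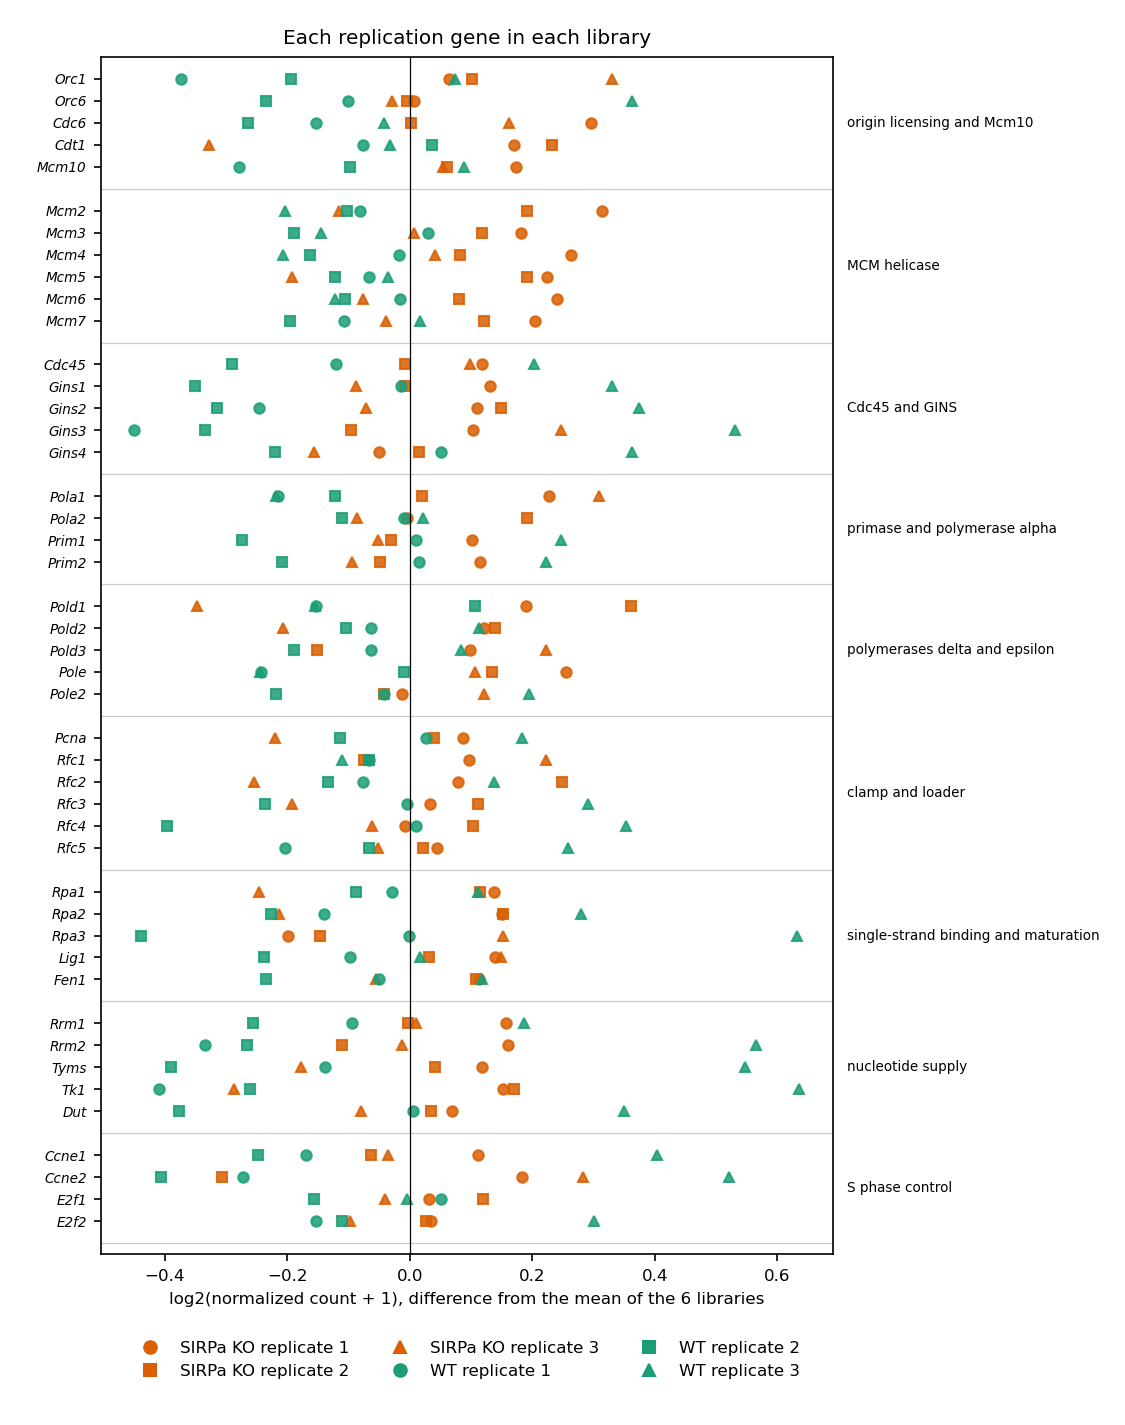
Each of the 45 genes in each library, as the difference of log2(normalized count + 1) from the gene's mean over the 6 libraries, with genes grouped by role; colour gives the group and shape the replicate. WT replicate 3 lies at the right for Cdc45, GINS and nucleotide supply genes and at the left or centre for the MCM helicase.

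Cdc45 and the GINS subunits, which complete the active helicase, had a different pattern. WT replicate 3 was the highest library for 5 of 5 genes. Gins3 had 330.3, 287 and 365 in KO and 225, 244 and 445 in WT, so that WT replicate 3 was the highest and the other WT libraries the lowest of the 6 (log2 fold change 0.17, SE 0.24). Cdc45 had 834, 765 and 823 in KO and 707, 628 and 886 in WT (0.14). Gins4, the most abundant per kilobase of the GINS subunits, had 1385, 1450.1 and 1286 in KO and 1485, 1230.5 and 1845 in WT (-0.13), with KO inside the WT range. Gins1 and Gins2 had log2 fold changes of 0.024 and 0.13. Gins2 shares 2758 exon bases with Gse1 on the opposite strand, and without a stated strand setting its reads are uncertain.

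Of the polymerases that extend the strands, Pole stood highest in KO relative to WT. Pole encodes the catalytic subunit of polymerase epsilon, which copies the leading strand. It had 2254, 2073 and 2032 in KO and 1596, 1875 and 1594 in WT, and the KO libraries lay above WT replicate 2, the highest of the WT libraries. The log2 fold change was 0.33 (SE 0.11, 95% interval 0.084 to 0.58, unadjusted p = 0.0135 by limma). Pole lies on chromosome 5 from 110286306 to 110337474 on the plus strand. Pold1, the catalytic subunit of polymerase delta, had 1822, 2053 and 1255 in KO and 1436, 1719.9 and 1435 in WT (0.13), and its KO libraries spanned the whole WT range. Pold3, an accessory subunit of polymerase delta, had 2266, 1905 and 2468 in KO and 2025, 1856 and 2243 in WT (0.11). Pole2 and Pold2, accessory subunits of epsilon and delta, had log2 fold changes of 0.044 and 0.036.

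The sliding clamp and its loader did not separate the groups. Pcna, the clamp that holds polymerases on DNA, had 15072, 14589.9 and 12188 in KO and 14458, 13120.4 and 16117 in WT (-0.063, SE 0.12), with overlapping groups. A processed pseudogene of it, Pcna-ps2, had a mean of 181, so that reads could have been split between them. Rfc1, the large subunit of the loader, had 4355, 3865 and 4749 in KO and 3888, 3889.5 and 3772 in WT (0.16). KO replicate 2 lay just below WT replicates 1 and 2. Rfc2 had 1838, 2067 and 1457 in KO and 1650.3, 1585 and 1913 in WT (0.049), and KO replicate 3 was the lowest library. It shares 952 exon bases with Lat2. Rfc3, Rfc4 and Rfc5, small subunits like Rfc2, had -0.033, 0.023 and 0.0089, with WT replicate 3 highest for all 3.

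Among the proteins that coat single strands and finish the lagging strand, Lig1 was separate between groups. It encodes the ligase that joins Okazaki fragments. Its counts were 5174, 4799 and 5208 in KO and 4388, 3983 and 4749.8 in WT, with KO replicate 2 and WT replicate 3 nearly touching (log2 fold change 0.21, SE 0.11, unadjusted p = 0.0697 by limma). It lies on chromosome 7 from 13277283 to 13311433 on the plus strand. Fen1, the flap nuclease, had 2537, 2528 and 2259 in KO and 2266, 1994 and 2546 in WT (0.11). Fen1 shares 1909 exon bases with Gm10143 on the opposite strand. Rpa1, the large subunit of the single-strand binding protein, had 5428, 5348 and 4163 in KO and 4838, 4644 and 5336 in WT (0.0039). Rpa3, the smallest subunit, had 293, 304 and 374 in KO and 336, 248 and 522 in WT (-0.13, SE 0.24), with WT replicate 3 the highest and WT replicate 2 the lowest library. Rpa2 had a log2 fold change of 0.059.

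Genes of nucleotide supply were highest in WT replicate 3 for 5 of 5 members. Rrm2, the inducible small subunit of ribonucleotide reductase, had 3344, 2771 and 2966 in KO and 2374, 2490.1 and 4429 in WT (0.023, SE 0.21). Tk1, thymidine kinase of the S phase, had 1409, 1426 and 1038 in KO and 954, 1057 and 1969.8 in WT (0.023, SE 0.24). For Rrm2 the other WT libraries lay below all 3 KO libraries, and for Tk1 they lay beside KO replicate 3, the lowest KO library. Rrm1, the large reductase subunit, varied less, with 7627, 6821 and 6881 in KO and 6404, 5726 and 7775 in WT (0.11). Tyms and Dut, which make the thymidine precursor and clear dUTP, had -0.013 and 0.015.

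Of 4 control genes of S phase entry, 3 were highest in WT replicate 3. Ccne2, a cyclin that activates Cdk2, had 1943, 1384 and 2083 in KO and 1417, 1291 and 2459 in WT (0.11, SE 0.23), and both groups spread widely. It shares 609 exon bases with Ints8 on the opposite strand. E2f2 had 2024, 2015 and 1848 in KO and 1777, 1831 and 2436 in WT (-0.024), with WT replicate 3 highest. E2f1, an activator of many of these genes, had 3109, 3306 and 2959 in KO and 3154, 2729 and 3035 in WT (0.073, SE 0.11). Its 6 values were close together, with WT replicate 2 the lowest. Ccne1 had a log2 fold change of 0.0086.

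The fit without WT replicate 3, which stands apart for cell cycle genes, asks what the lean looks like among the other libraries. It was chosen with these values known and leaves 2 WT libraries. WT replicate 3 lay above both other WT libraries for 35 of 45 genes, so its removal by itself raises KO over WT for them. The shares of all genes tested carry no such choice, so setting them beside the 45 is a description and not a test. Of 45 genes 0 passed the adjusted threshold over 13394 genes by limma, where 0.00747% of all genes tested did, and 0 passed by edgeR (0.00741% of all genes) or DESeq2 (0.00416%). The log2 fold change was above 0 for 45 of 45 genes, where 49.3% of all genes tested were, with a median of 0.19 and a range from 0.012 (Pcna) to 0.48 (Gins3). The median of all genes tested was -0.0023. At an unadjusted p under 0.05, 10 genes were higher and 0 lower, 22.2% of the 45 against 0.874% of all genes tested higher and 1.57% in either direction. There were 11 by edgeR and 9 by DESeq2, where 1.66% and 0.756% of all genes had one. The KO libraries lay above both WT libraries for 18 of 45, or 40% against 5.11%, and below both for 0, against 5.55%. Gins3 had the smallest p (log2 fold change 0.48, unadjusted p = 0.0168 by limma), followed by Pola1 (0.35, 0.0182), Cdc6 (0.36, 0.0259), Gins2 (0.34, 0.0265) and Rrm2 (0.31, 0.0288). The 18 genes were Pola1, Pole, Cdc6, Mcm4 and Lig1 with Orc1, Orc6, Mcm10, Mcm7, Cdc45, Gins2, Gins3, Pole2, Rfc5, Rrm1, Rrm2, Ccne1 and E2f2. By role, the median ran from 0.12 for primase and polymerase alpha to 0.28 for licensing with Mcm10 and 0.28 for Cdc45 and GINS. The MCM helicase had 0.20, as with all libraries (0.20), while nucleotide supply had 0.26 against 0.023 with all libraries. Leaving out a further library, KO replicate 1, 2 or 3 or WT replicate 1 or 2, left 42, 41, 45, 43 and 38 genes above 0, in that order. Without KO replicate 1, 2 or 3, 0, 6 and 19 of the 45 had an unadjusted p under 0.05 by limma, against 10 before. Of all genes tested in these fits, 124 of 13176, 583 of 13167 and 313 of 13203 had such a p, in either direction.

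**Figure D3:**
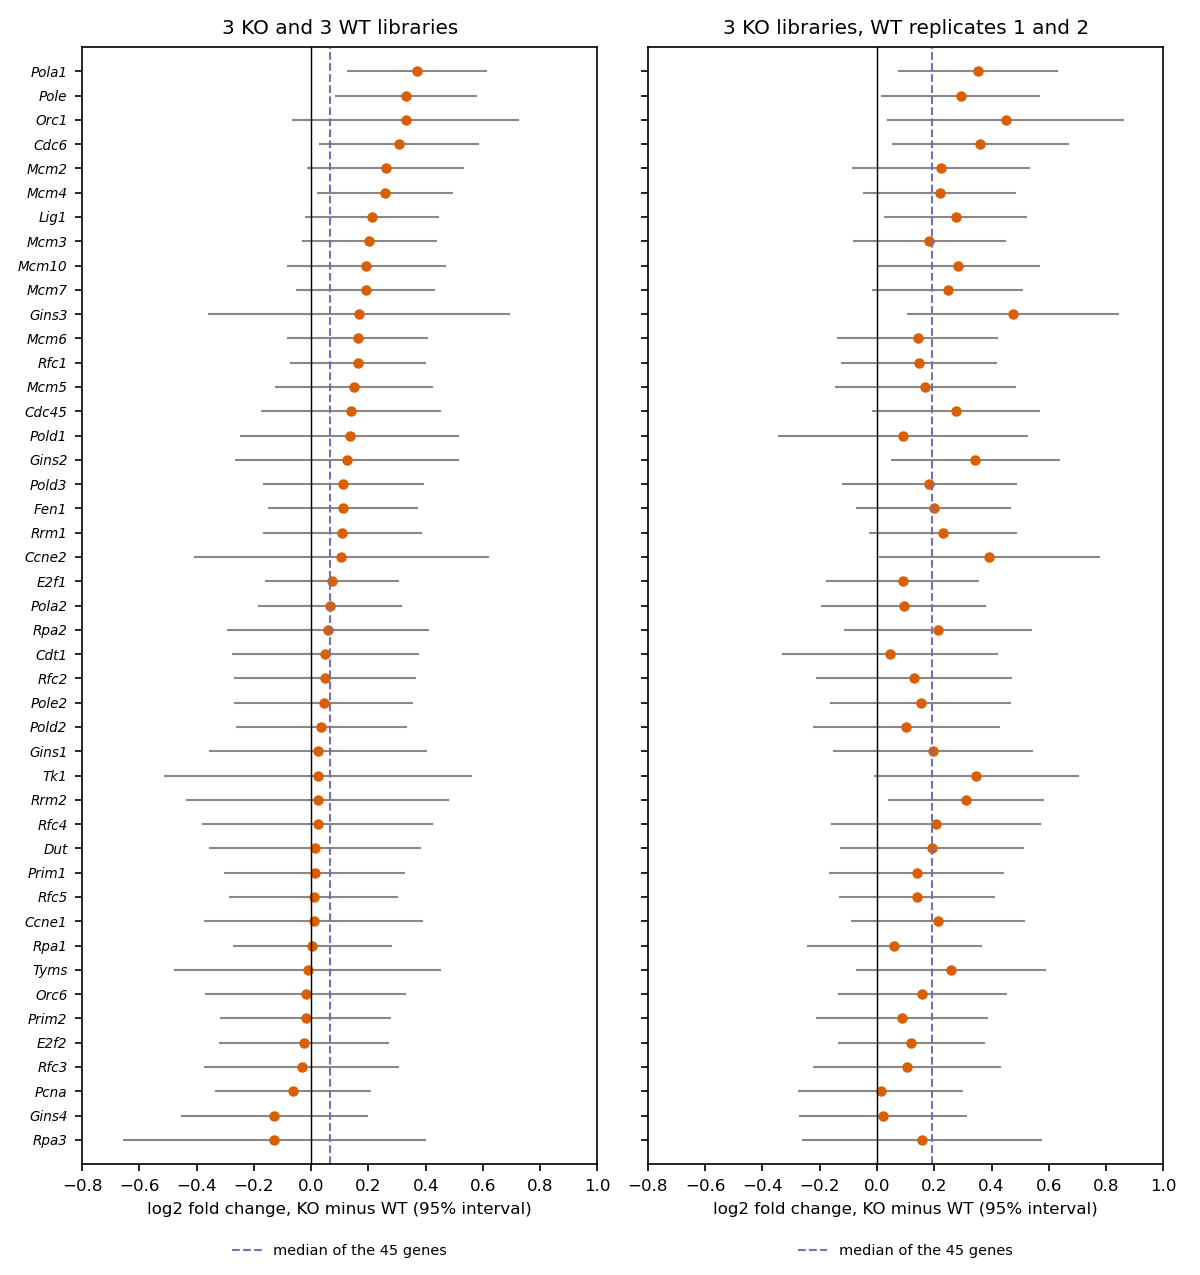
Log2 fold change of KO over WT with its 95% interval from limma for the 45 genes, in order of the value with all libraries; the left panel uses 3 WT libraries and the right panel WT replicates 1 and 2, and the dashed line is the median of the 45. Points are on both sides of 0 at the left, with a median of 0.066, and above 0 for all 45 at the right, with a median of 0.19.

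The WT libraries lay far apart for these genes. WT replicate 3 was already known to stand apart for cell cycle genes, so the shares given for it describe that and do not test it. WT replicate 3 was the highest of the 6 libraries for 24 of 45 genes (53.3%), against 26.2% of all genes tested. WT replicates 1 and 2 were the highest for 0 of 45, against 8.21% and 17.3%, and KO replicates 1, 2 and 3 for 10, 6 and 5, against 11.3%, 11.8% and 25.2%. WT replicate 2 was the lowest for 25 of 45 (55.6%), against 16.9% of all genes tested, and WT replicates 1 and 3 for 7 and 6, against 9.38% and 22.3%. KO replicates 1 and 2 were the lowest for 0, against 11.2% and 13.1%, and KO replicate 3 for 7, against 27.2%. The median deviation of the 45 genes from their 6-library mean was 0.12, 0.042 and -0.053 on the log2 scale in KO replicates 1 to 3 and -0.077, -0.21 and 0.18 in WT replicates 1 to 3. Relative to the mean of WT replicates 1 and 2, WT replicate 3 was higher by a median of 0.32, against 0.0075 for all genes tested.

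The log2 difference of WT replicate 3 from that mean was uneven across the steps of replication. It was largest for nucleotide supply, with a median of 0.81 and 0.97 for Tk1, 0.87 for Rrm2 and 0.81 for Tyms. Cdc45 and GINS had a median of 0.51, up to 0.92 for Gins3, and S phase control genes 0.52. The MCM helicase had a median of -0.063, from -0.12 for Mcm4 to 0.17 for Mcm7. WT replicate 3 lay below both other WT libraries for 7 of 45 genes and above both for 35. Of the 5 genes whose groups did not overlap, Pola1 (-0.050), Pole (-0.12) and Mcm4 (-0.12) were lower in WT replicate 3, and Cdc6 (0.17) and Lig1 (0.18) higher. In ribonucleotide reductase, the Rrm2 share of the summed level per kilobase was 69.4% in WT replicate 3 and 59.6% to 63.5% in the other 5 libraries.

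**Figure D4:**
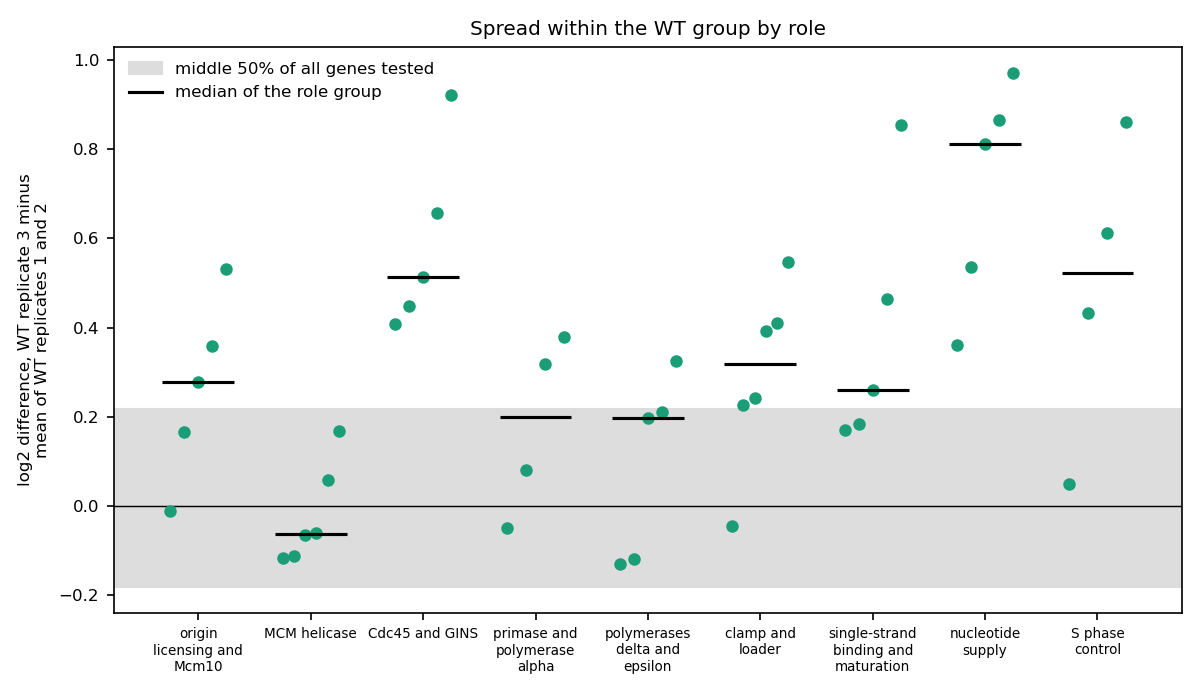
Log2 difference of WT replicate 3 from the mean of WT replicates 1 and 2, with 1 point per gene in 9 role groups, a bar at each group's median and a grey band over the middle 50% of all genes tested. The MCM helicase lies inside the band, and the 5 nucleotide supply genes and the 5 genes of Cdc45 and GINS lie above it.

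Several other measures differed in that library too. The 23 replication genes with an exon length of at most 3868 bases had a median excess of 0.41 and the 22 longer ones 0.18. Over all genes tested the same split gave 0.11 for 6462 genes and -0.066 for 7052 genes. The E2F motif split it as well, with 0.17 for the 15 genes with a match and 0.39 for the 22 without. Mitosis genes had a median excess of 0.80 and were highest in WT replicate 3 for 20 of 23. Macrophage markers had a median of -0.25 over 10 genes, with summed levels of 928327 to 1082240 in KO and 1060460 to 1248440 in WT. The highest of these sums was that of WT replicate 3 itself, opposite in direction to the median, and Lyz2 held most of it, with 745629, 727406 and 951035 in WT replicates 1 to 3. Neutrophil markers had a median of 0.74 over the 5 of 8 that passed the filter. The summed level of the 8 neutrophil markers was 2380.1 to 2847 in KO and 2466 to 2883 in WT, and Ly6g was at 0 in every library. Mmp8 held most of that sum, with 2190, 2155 and 2197 in WT replicates 1 to 3, so the sum says little about the others. WT replicate 3 also had 67446846 reads, where the next deepest had 37307975. The part of each of these in the result was not tested.

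Other genes of the pathway were taken by function, with earlier results of these data known. Of 37 further replication genes 0 rose and 0 fell, 27 were above and 10 below WT, and the median log2 fold change was 0.10, or 0.19 without WT replicate 3. At an unadjusted p under 0.05 by limma, 4 of the 37 were higher and 0 lower in KO. Of all genes tested, 0.688% were higher at that p and 1.52% passed it in either direction. The 3 with the smallest p, a choice that favours separate groups, were higher in KO without overlap between groups. Of all genes tested 1.96% had that order, and the count over all 37 is not given here. Dnmt1, the methyltransferase that copies DNA methylation behind the fork, had 11927, 10767 and 11862 in KO and 9049.8, 10366 and 8168 in WT (0.33, unadjusted p = 0.0162 by limma). Uhrf1, which brings Dnmt1 to new DNA, had 4081, 3755 and 3974 in KO and 3206, 3067 and 3485 in WT (0.28, 0.0203). Ticrr, needed to start origins, had 621, 544 and 599 in KO and 349, 466 and 534 in WT (0.41, 0.0324), where WT replicate 3 came close to KO replicate 2. The fit without WT replicate 3 gave Dnmt1 0.25, Uhrf1 0.33 and Ticrr 0.54. Their unadjusted p by limma was then 0.0619, 0.0139 and 0.00761, in that order.

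Nucleotide supply outside the 45 genes had 0 of 11 past the test, 4 above and 7 below WT, with a median of -0.044. Without WT replicate 3 the median was 0.057, with 7 above, so that its sign turned on that library. Dck, the salvage kinase for deoxycytidine, had 5930.1, 6514 and 5923 in KO and 6425, 6694 and 8117 in WT (-0.20). Shmt1, an enzyme of folate metabolism, had 215, 178 and 129 in KO and 134, 134 and 161 in WT (0.26). Groups overlapped for both.

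Of 28 further genes of S phase control 0 passed, with 18 above and 10 below WT (median 0.070, or 0.092 without WT replicate 3, with 23 above). Cdkn1a, the inhibitor p21 that blocks cyclin E with Cdk2, had the smallest p and lay below WT. It had 5297, 5601 and 4100.4 in KO and 6025, 5953 and 6057 in WT, and the groups did not overlap (-0.28, SE 0.13, unadjusted p = 0.0499 by limma). The fit without WT replicate 3 gave Cdkn1a -0.27, with an unadjusted p of 0.0867 by limma. Rbl1, the pocket protein p107, had 3634, 2971 and 3387 in KO and 2675, 2885 and 3099 in WT (0.20). Ccnd2, a cyclin of G1, had 1069.7, 1026 and 1051 in KO and 1024, 766 and 919 in WT (0.23), with the KO libraries just above WT replicate 1. Mitosis genes had a median of 0.0020, 12 above and 11 below WT of 23, and 0.26 without WT replicate 3, with 22 above. Mki67, the proliferation marker, had 9569.5, 7397 and 11569.5 in KO and 6144, 7055 and 10717 in WT (0.27, SE 0.21). Cenpa, the histone of centromeres, had 475, 675 and 398 in KO and 467, 758 and 799 in WT (-0.38), and Mybl2, a factor for late cell cycle genes, 632, 641 and 512 in KO and 449, 484 and 598 in WT (0.23).

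Weighting the libraries changed the call. With limma's array weights 26 of 45 genes were called higher in KO, Pola1 with an adjusted p of 0.00162, as were 12.5% of all genes tested (1685 genes), and 25.9% were called in either direction (3498 genes). The weights were 6.61 for KO replicate 1 and 7.10 for WT replicate 1 and 0.258 to 0.543 for the other 4, so that this fit rests mostly on 1 library per group, and the weights had not settled when their estimation stopped. Without WT replicate 3, the weighted fit called 0 of 45, against 0.00747% of all genes tested. Under the alternatives run other than these weights, the adjusted p of Pola1 with all groups was 0.857 or more.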

How the data were processed

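One deposited table of 54232 genes by 6 libraries was used, and titles gave each library's group and replicate. The tools named, per the submitters' processing notes, are featureCounts 1.6.0, STAR 2.5.1b, DESeq2 1.22.2 and CASAVA 1.4, with the build GRCm38. The design text in the labels names TopHat as the aligner instead and a stranded kit. The sources used here give neither the annotation release nor the strand setting, which leaves reads of overlapping genes and pseudogenes uncertain. The deposited library columns and their mean hold a signal, which is each gene's count after division by the library's size factor. Undoing that division gave whole reads for 100% of positive values, to a tolerance of 0.001. Other columns hold, per the file headers, log2 fold changes, a Wald score and raw and adjusted p-values.

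The main test was limma 3.58.1 (R 4.3.3) with an intensity trend on log2(value + 1), a scale on which changes of low genes come out too small, over genes that reached 10 in 3 or more libraries, two-sided, with Benjamini-Hochberg adjustment over all genes tested. edgeR 4.0.16 (quasi-likelihood) and DESeq2 1.42.0 were alternatives on these reads, and each called 1 gene, Sirpa. Replicates all differed beyond sampling noise, with a chi-square of at least 13.4 times its degrees of freedom. Depth sets counting error, and any other part it had was not tested. Exon lengths and positions are from GENCODE M21 on GRCm38 (54079 IDs found); exon length is the union over transcripts, which understates levels per kilobase of genes with long rare exons. Entries without a gene name (67) held 0.00282% of reads. Given per library were Pola1 and, by role, the 3 genes with the smallest p, the highest mean and those without overlap between groups (30 of 45), and, of other lists, the 3 with the smallest p, of which 1 is not reported here. The members and lists were chosen with earlier results of these data known. Alternatives were pseudocounts of 0.1 and 10, no filter and a minimum of 50, TMM and quantile scaling, array weights, a block by replicate number and leaving out each library.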

Additional observations from a re-analysis of the deposited data

How the results depend on the processing

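Direction and side of the threshold were kept for the counts of called genes and for Pola1 under the pseudocounts, filters, TMM and quantile scaling, edgeR, DESeq2 and the omission of any 1 library. Array weights moved all 4 values with all libraries, to 3498 genes and 26 replication genes called, a median log2 fold change of 0.22 and 0.43 for Pola1. The median was 0.24 without the third library of both groups, with 0 called. Leaving out 1 library gave medians from -0.0014 to 0.19 with all groups and from 0.14 to 0.25 without WT replicate 3. In fits with 1 WT library left, that library is assumed to vary like the KO libraries.

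Same-numbered libraries deviated together with correlations of 0.013, 0.31 and 0.13. The value of 0.31 was the largest between any KO and any WT library, while KO replicate 3 correlated slightly better with WT replicate 1 (0.15). These values do not settle whether the replicate numbers mark pairs, and the main fit did not pair them. With the replicate number as a block, 1 gene and 0 replication genes were called with all libraries (median 0.066, Pola1 0.37), and 42 genes against 1 without WT replicate 3 (3 higher, 39 lower), with 0 replication genes (median 0.24, Pola1 0.29). In that last fit KO replicate 3 is alone in its block and adds nothing to the comparison. Its median and Pola1 value are therefore those without the third library of both groups. At an unadjusted p under 0.05 by limma, 20 of 45 passed in it, where 538 of 13394 genes tested did.

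Of 493 values for the other 29 genes given per library, 429 kept direction and side of the threshold, 19 passed it under array weights and 45 changed sign, 30 of these on leaving out 1 library. Rrm2 and Tk1 had -0.030 and -0.039 by edgeR and -0.035 and -0.042 by DESeq2. Prim2 and Rpa1 had 0.0021 and -0.0064 after quantile scaling. With array weights, Prim2 had 0.082, Pcna 0.045, E2f1 -0.0035 and E2f2 0.16. Without the third library of both groups, Gins4 had 0.068, Prim2 0.13, Pcna 0.11, Rpa3 0.048 and E2f2 0.16. Leaving out 1 library gave Cdt1 -0.055 to 0.23, Gins3 -0.014 to 0.48, Gins4 -0.27 to 0.021, Pola2 -0.013 to 0.13, Prim2 -0.13 to 0.087, Pold1 -0.012 to 0.34, Pcna -0.14 to 0.031, Rfc2 -0.064 to 0.19, Rpa1 -0.064 to 0.13, Rpa3 -0.38 to 0.16, Rrm2 -0.14 to 0.31, Tk1 -0.18 to 0.35, Ccne2 -0.072 to 0.39 and E2f2 -0.11 to 0.12. The causes were not tested. The lowest read count of a replication gene in a library was 112, and the share of counting error in the spread between libraries was not tested.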
